A study of Mus musculus with 6 samples.

Results

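Cadherins, claudins, adhesion G protein-coupled receptors (GPCRs), catenins and the proteins that hold them in place join neighbouring cells to one another. The genes described here were chosen by name: Spint1, St14, and every symbol that starts with Cdh or Fat followed by a digit, or with Dchs, Adgr, Cldn, Ctnn or Tjp, without pseudogenes. On the array 62 of them had a value under a single gene symbol, of 18572 genes in all. They were 15 Cdh cadherins, 3 Fat cadherins, 1 dachsous cadherin, 14 adhesion GPCRs, 21 claudins, 5 catenins, 1 tight junction scaffold, and matriptase (St14) with its inhibitor (Spint1). These families go by symbol. The claudins thus include the claudin domain gene Cldnd2, and the catenins include genes only named for them, such as Ctnnbl1. A further 43 protein-coding symbols that meet the rule were not analysed here, among them Cdh2, Ctnna1 and Ctnnb1. Of these, 3 (Ctnnb1, Cldn34c2 and Cldn34c3) share a probe with another gene.

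Classical cadherins bind the same cadherin on the next cell through calcium, and catenins tie their cytoplasmic tails to actin. Claudins form the strands of tight junctions, and Tjp proteins anchor those strands. Fat and dachsous proteins are giant cadherins that bind each other across cells and carry signals on planar polarity and growth. Adhesion GPCRs couple a long extracellular adhesion region to a receptor that spans the membrane repeatedly. In pancreatic islets, E-cadherin (Cdh1) joins beta cells, and contacts between beta cells shape insulin release.

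Total RNA came from NIT-1 cells, a beta cell line derived from an insulinoma of a transgenic mouse of the diabetes-prone NOD strain. A viral oncogene, the SV40 large T antigen under an insulin promoter, gave rise to that tumour, and control and treated cells both carry it. All cells grew in culture medium with fetal bovine serum, penicillin and streptomycin. After 24 h in 6-well plates the control cells stayed in medium alone, with 0 µmol/L cadmium sulphate (CdSO4), and the others received 4 µmol/L for another 24 h. There were 3 arrays per group, and their titles number them as biological replicates. Nothing in the labels says whether the cultures were grown on separate days, so p-values measure only the spread between these arrays. The study used this dose as an oxidative insult, and the question here is how the adhesion genes stood after it.

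Values are log2 signals, 1 per transcript cluster. Changes are cadmium minus control, and a gene is called where its limma adjusted p over all genes is under 0.05. As a mark of background, the 95th percentile of 5222 negative control probes averaged 6.18 over the arrays, and it is approximate, since those probes and a gene's value may combine different numbers of probes. Array medians were 3.34 to 3.35 in control and 3.39 to 3.40 in cadmium arrays, and the median change of all genes was 0.04. The second principal component, with 15.6% of the variance, set control replicate 3 and cadmium replicate 1 against the remaining arrays. Of 9 measured beta cell markers 0 reached the bound, the brightest being Ins2 at 5.27 in control and 5.29 in cadmium arrays, so the label could not be borne out by these probes. Over all genes 6.45% were called higher and 5.8% lower. Among markers of other cells, 1 of 3 stromal genes was called lower (Col3a1, at 9.07 and 8.06). The summed stromal level, between 9.15 and 9.36 in control and between 8.22 and 8.54 in cadmium arrays, was nearly that of Col3a1 alone, since Col1a2 was at 5.14 and 5.11 and Thy1 at 5.32 and 5.21, neither of them called. Of 7 acinar genes Ctrb1 and Cela2a were called higher, and 5 were not called, with changes between -0.07 (Prss2) and 0.22 (Cpa1). The single duct gene measured, Cftr, was called lower, and 0 of 6 endothelial and 0 of 4 immune genes were called. The acinar, duct, endothelial and immune genes all lay below the bound. The part of such cells in the results below was not tested, and in bulk RNA fewer cells of a type and less RNA per cell cannot be told apart.

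With cadmium, 5 of the 62 genes fell and 4 rose. The atypical cadherin Fat1 and the adhesion GPCR Adgra3 fell most, with changes of -1.35 and -1.32, and the Fat ligand Dchs1, the protease inhibitor Spint1 and the protease St14 fell less. The rises in Cdh17, Cdh13, Ctnna2 and Ctnnbl1 were small, between 0.26 and 0.54. Of all genes 6.45% were called higher and 5.8% lower, against 6.45% and 8.06% of these 62. In the fit with all arrays and all genes, the 62 as a set were therefore called at about the rate of all genes. Their median change was 0.05. Spint1 and St14, which the rule names singly, make up 2 of the 5 that fell. That rule was chosen with earlier results of these data known. The groups' arrays did not overlap in 19 of the 62 genes with cadmium higher and in 9 with cadmium lower, which is 30.6% and 14.5%, against 22.8% and 13.1% of all genes.

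Most of these genes were dim. A group mean reached the bound in 8 of 62, or 12.9%, against 13.1% of all genes: Fat1, Dchs1, Adgra2, Adgra3, Adgrg1, Ctnnbl1, Ctnnd1 and Tjp1. No fold is given for the other 54, and where 1 group lay below the bound a fold is a lower limit, with each dim array set to at least its own 95th percentile of negative controls. Positive control probes had medians of 5.87 to 6.10 over the arrays, also below the bound, so a gene below it is not thereby absent.

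**Figure D1:**
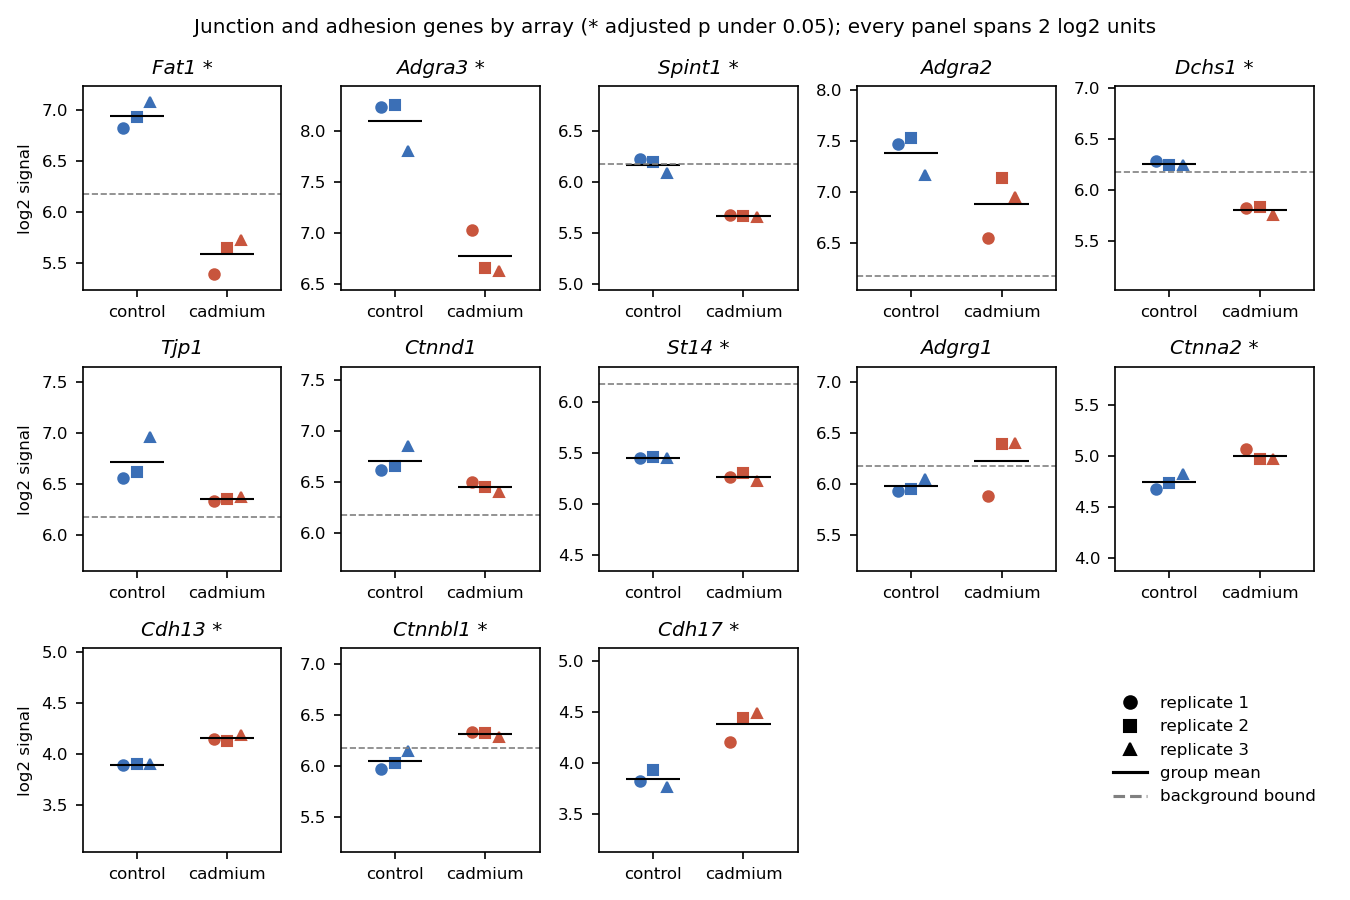
Log2 signal of each array for the 13 genes that were called or reached the background bound, ordered by change, with group means as bars and the bound of 6.18 dashed where it falls in the panel. The 9 called genes carry an asterisk, and in each of them the 3 cadmium arrays lie on one side of the 3 control arrays.

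Fat1 encodes a giant cadherin whose cytoplasmic tail binds regulators of actin and of the Hippo pathway. Its control arrays read 6.82, 6.93 and 7.07 and its cadmium arrays 5.40, 5.65 and 5.73. All control arrays lay above the bound and all cadmium arrays below it, without overlap. The change was -1.35 ± 0.10 (SE), with a 95% interval from -1.59 to -1.11 (limma adjusted p = 0.0015), and the level was at least 1.71-fold lower with cadmium. Control replicate 3 was the highest control and cadmium replicate 1 the lowest cadmium array. Without both, the change was -1.19 (limma adjusted p = 0.0014).

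The other measured Fat cadherins did not pass. Fat4, the main partner of Dchs1 in mammals, averaged 4.10 ± 0.06 (SD, n = 3) without and 4.06 ± 0.09 with cadmium, with a 95% interval of the change from -0.19 to 0.12. Fat3 was at 3.12 and 3.14. Both lay below the bound, and whether their changes differ from that of Fat1 was not tested.

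Dchs1, the dachsous cadherin that Fat4 binds, read 6.29, 6.25 and 6.25 on control arrays and 5.83, 5.84 and 5.75 on cadmium arrays. The groups were far apart for their spread, with SDs of 0.02 and 0.04. Its change was -0.46 ± 0.05 (SE), from -0.57 to -0.34 (limma adjusted p = 0.0021), but the control mean of 6.26 stood just above the bound, so the fold is at least 1.07.

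Among adhesion GPCRs, 0 of 14 were called higher and 1 lower, against 6.45% and 5.8% of all genes. Adgra3, also known as Gpr125, is an orphan receptor linked to planar polarity signalling in zebrafish. Its control arrays read 8.23, 8.25 and 7.80 and its cadmium arrays 7.03, 6.66 and 6.63. All 6 arrays lay above the bound, and the groups did not overlap. The change was -1.32 ± 0.15 (SE), a 2.50-fold lower level, with a 95% interval from -1.68 to -0.96 (limma adjusted p = 0.0025). Both arrays that stood apart lay toward the other group, and without them the change was -1.60 (limma adjusted p = 0.00053).

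Adgra2, also known as Gpr124, is a co-activator of Wnt7 signalling in brain endothelium. It read 7.47, 7.52 and 7.17 on control arrays and 6.55, 7.13 and 6.96 on cadmium arrays. The groups just missed overlapping, at 7.17 against 7.13. The change was -0.50 ± 0.16 (SE) and did not pass (limma adjusted p = 0.086), while without the 2 arrays that stood apart it was -0.45 and passed (limma adjusted p = 0.025). It did not pass in any fit that left out 1 array, at limma adjusted p of 0.067 to 0.224. The third member of this subfamily, Adgra1, averaged 4.30 without and 4.28 with cadmium.

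Adgrg1, also known as Gpr56, is an abundant receptor of human and mouse islets. It read 5.93, 5.95 and 6.05 on control arrays and 5.89, 6.39 and 6.40 on cadmium arrays. Cadmium replicate 1 was the lowest of all 6 and the other cadmium arrays were the highest, so the groups overlapped. The change was 0.25 ± 0.14 (SE; limma adjusted p = 0.275), and without cadmium replicate 1 it was 0.42 (limma adjusted p = 0.0096). Without any other single array it did not pass, at limma adjusted p of 0.310 to 0.543.

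The remaining 11 adhesion GPCRs, among them 4 latrophilins (Adgrl1 to Adgrl4) and 2 brain angiogenesis inhibitors (Adgrb2 and Adgrb3), stayed below the bound and did not pass. The latrophilins changed by -0.14 to 0.08. Adgrl2 had 2 probes, at 3.05 and 2.63 in control arrays, whose changes of 0.01 and -0.04 were both small.

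Cadmium induces transcription through metal response elements, short sites bound by the factor Mtf1, so the stretch before the start of genes that changed is shown for a gene that fell and a gene that rose. RefSeq promoter windows of GRCm38.p6, from 250 bases before to 50 after a start, were at hand for 44 of the 62 genes. The element's core was searched as TGCACNC and TGCGCNC on both strands, and overlapping matches counted separately. It occurred in 17 of the 44 genes (38.6%) and in 31.6% of the 11297 measured genes with a window. Among called genes with a window it was in 1 of 2 that rose (Ctnna2, with 3 matches) and 1 of 3 that fell (Adgra3). A match is only a description of letters. The bases before the start of Adgra3, on the minus strand at chr5:50058997-50059246, and of Ctnnbl1, on the plus strand at chr2:157737151-157737400, are given 5′ to 3′ with the core in capitals. Adgra3 holds it once, on the strand opposite to the gene, and in Ctnnbl1 these letters are not in the window.
Adgra3: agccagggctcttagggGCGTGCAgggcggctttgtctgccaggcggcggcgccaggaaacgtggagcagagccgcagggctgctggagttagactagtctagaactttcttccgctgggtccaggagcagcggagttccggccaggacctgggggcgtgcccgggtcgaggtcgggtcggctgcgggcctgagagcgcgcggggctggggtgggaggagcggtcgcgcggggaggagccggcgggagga
Ctnnbl1: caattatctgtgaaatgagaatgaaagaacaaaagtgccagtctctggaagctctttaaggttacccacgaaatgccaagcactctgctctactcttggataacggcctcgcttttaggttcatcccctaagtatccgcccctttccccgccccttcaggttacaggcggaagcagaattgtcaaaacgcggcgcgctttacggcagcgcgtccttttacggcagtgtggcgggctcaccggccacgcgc
The only windows for Fat1 and Ctnna2 are at a start other than the first base of the gene, and neither is printed.

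Of the 15 Cdh cadherins, all of them below the bound, 2 rose and 0 fell, against 6.45% and 5.8% of all genes. Cdh17, a cadherin of intestinal epithelium, read 3.83, 3.93 and 3.76 on control arrays and 4.20, 4.44 and 4.49 on cadmium arrays. The groups did not overlap, and the change was 0.54 ± 0.09 (SE), from 0.33 to 0.75 (limma adjusted p = 0.0098). Cdh13, a cadherin held in the membrane by a lipid anchor, read 3.89, 3.90 and 3.90 on control and 4.14, 4.13 and 4.18 on cadmium arrays. Its change was 0.26 ± 0.05 (SE; limma adjusted p = 0.014), with a very narrow spread in both groups. The call ended without the control arrays 1 or 2, or without the cadmium array 3, at limma adjusted p of 0.056 to 0.058.

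E-cadherin, the main cadherin of epithelia and of beta cells, was read by Cdh1 at 4.55, 4.60 and 4.57 in control and 4.43, 4.48 and 4.52 in cadmium arrays. Its cadmium arrays all lay below its control arrays, yet the change of -0.10 did not pass (95% interval -0.22 to 0.02, limma adjusted p = 0.244). Cdh5, the cadherin of endothelium, was at 3.82 ± 0.02 (SD, n = 3) and 4.02 ± 0.09, and its change of 0.21 did not pass (limma adjusted p = 0.066). Cdh22, a cadherin of the brain and pituitary, was at 5.59 ± 0.06 and 5.72 ± 0.04 (limma adjusted p = 0.175). The 13 Cdh genes that were not called changed by -0.14 to 0.21, with a median of 0.06, close to the 0.04 of all genes.

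Of the 21 claudins 0 were called by limma, and at an unadjusted p under 0.05 there were 3 higher (14.3%) and 0 lower, against 17.6% and 11.4% of all genes. Their changes lay between -0.08 and 0.20, and no 95% interval reached below -0.28 or above 0.43. Every claudin lay below the bound in both groups. The claudin with the largest change, Cldn24, read 5.31, 5.14 and 5.17 on control and 5.47, 5.41 and 5.32 on cadmium arrays (0.20 ± 0.07, SE, limma adjusted p = 0.107). The 8 genes of the Cldn34 group, on the X chromosome, had group means of at most 3.37. With array weights Cldn15 was called at 0.17 (limma adjusted p = 0.049), the only claudin called in any setting.

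Among 5 catenins and genes named for them 2 rose and 0 fell, where 6.45% of all genes were called higher and 5.8% lower. Neither of the 2 is a core subunit of the epithelial cadherin complex. Ctnna2, the alpha-catenin of neurons, read 4.68, 4.74 and 4.82 on control and 5.07, 4.97 and 4.97 on cadmium arrays. Its change was 0.26 ± 0.06 (SE; limma adjusted p = 0.035). Ctnnbl1, which resembles beta-catenin in sequence and belongs to a splicing complex, read 5.98, 6.03 and 6.15 on control and 6.34, 6.32 and 6.29 on cadmium arrays. Its change was 0.27 ± 0.06 (SE; limma adjusted p = 0.031), at least 1.09-fold. For both genes the groups did not overlap, but the call held in 1 of 6 fits with an array left out, the one without control replicate 3, and was lost in the other 5, at limma adjusted p of up to 0.113 and 0.107. With arrays centred on their medians neither passed, at limma adjusted p of 0.061 and 0.054.

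Ctnnd1 encodes p120-catenin, which keeps cadherins at the cell surface. It read 6.62, 6.65 and 6.85 on control and 6.50, 6.46 and 6.40 on cadmium arrays, without overlap. The change was -0.26 ± 0.07 (SE; limma adjusted p = 0.068). Centring the arrays moved it past the threshold (-0.30, limma adjusted p = 0.047). It did not pass in any fit that left out 1 array, at limma adjusted p of 0.087 to 0.178.

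Tjp1, or ZO-1, is the scaffold that links claudin strands to actin. It read 6.56, 6.62 and 6.96 on control and 6.33, 6.35 and 6.37 on cadmium arrays. All 6 arrays lay above the bound and the groups did not overlap, with control replicate 3 well above its group. The change was -0.36 ± 0.10 (SE; limma adjusted p = 0.064), and without control replicate 3 it was smaller, at -0.24, and passed (limma adjusted p = 0.040). Without any other single array it did not pass, at limma adjusted p of 0.066 to 0.156.

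Matriptase, encoded by St14, is a serine protease of epithelial surfaces, and Spint1 encodes its membrane-bound inhibitor HAI-1. Spint1 read 6.23, 6.20 and 6.09 on control and 5.68, 5.67 and 5.66 on cadmium arrays. The change was -0.51 ± 0.05 (SE), from -0.63 to -0.38 (limma adjusted p = 0.0020), with a control mean of 6.17 just under the bound. St14 read 5.45, 5.46 and 5.45 on control and 5.26, 5.31 and 5.22 on cadmium arrays. Its fall by 0.19 passed narrowly (limma adjusted p = 0.049) and did not pass when any of the 6 arrays was left out, at limma adjusted p of 0.082 to 0.141. The protease and its inhibitor were thus lower on every cadmium array than on any control array, as were 13.1% of all genes. Both had group means below the bound, and both were chosen by name with earlier results of these data known.

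**Figure D2:**
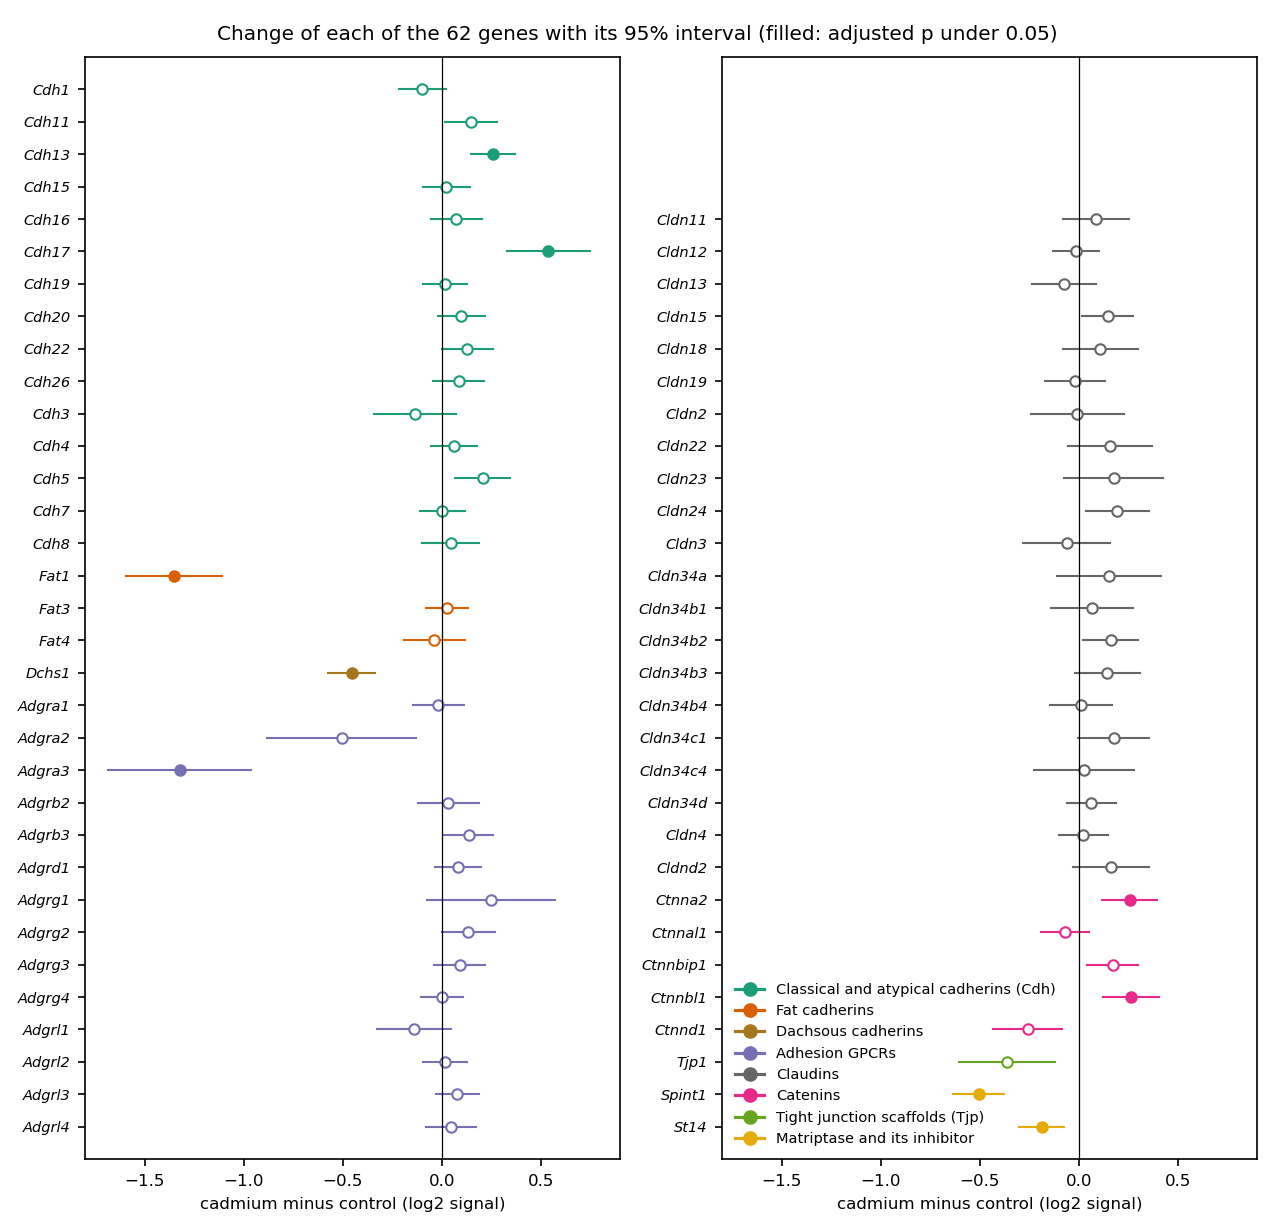
Change of each of the 62 genes (cadmium minus control, log2 signal) with its 95% interval, coloured by family, with filled points for the 9 called genes. Fat1 and Adgra3 lie near -1.3, and the 21 claudins lie between -0.08 and 0.20.

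**Figure D3:**
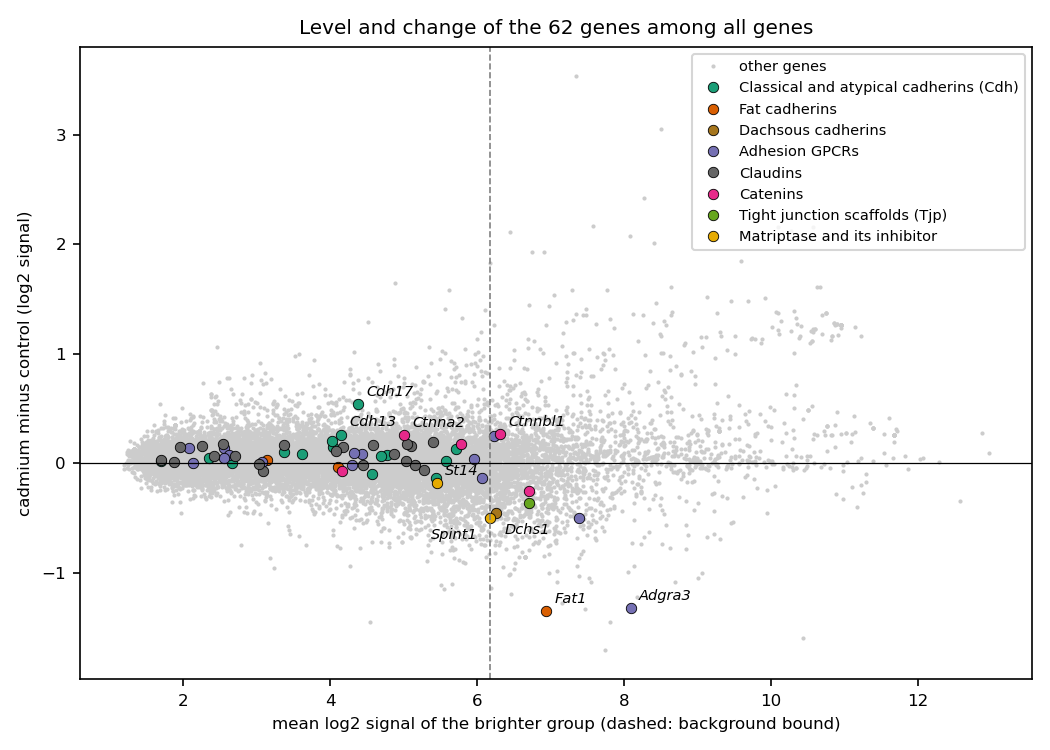
Change against the mean log2 signal of the brighter group for all 18572 genes (grey) and the 62 genes (coloured by family), with the bound of 6.18 dashed. The largest falls of the 62, in Fat1 and Adgra3, are in genes whose brighter group lay above the bound, and 54 of the 62 lie to its left.

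Of the 9 called genes, Fat1, Dchs1, Adgra3, Spint1 and Cdh17 were called in each fit that left out 1 array, with limma adjusted p of at most 0.046. The count of genes that rose was 1 in the fits without the control arrays 1 or 2 or the cadmium array 3, 2 without cadmium replicate 2, and 5 without the 2 arrays that stood apart, and the count that fell was 4 or 5 in each of these fits.

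**Figure D4:**
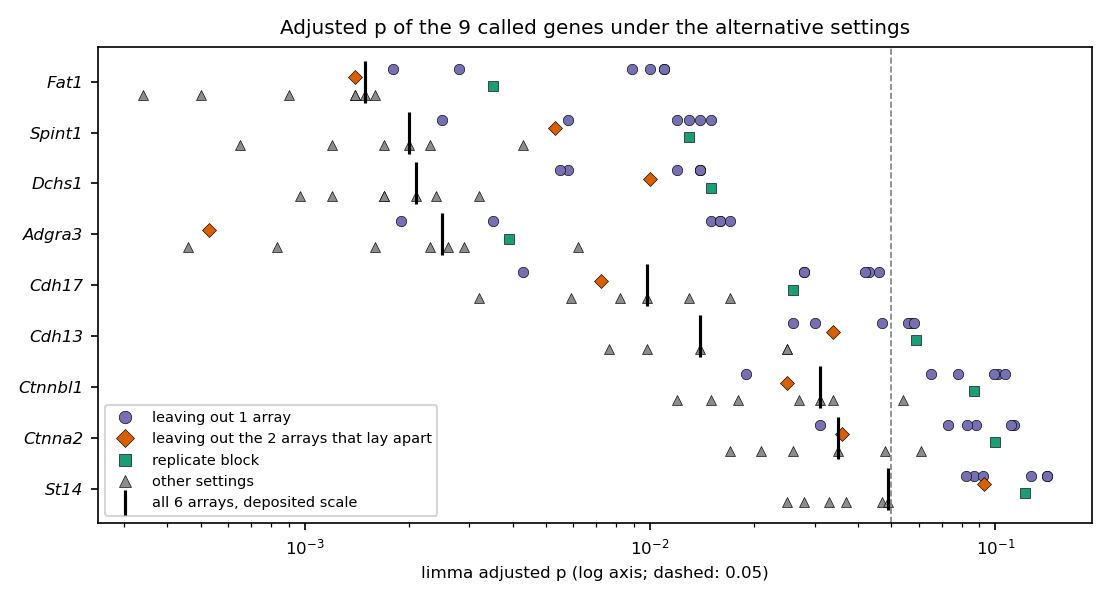
Limma adjusted p (log axis) of the 9 called genes with all 6 arrays (black bar) and under the alternative settings at the same threshold of 0.05 (dashed). Fat1, Spint1, Dchs1, Adgra3 and Cdh17 stay left of the line throughout, and Cdh13, Ctnnbl1, Ctnna2 and St14 cross it.

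Genes that work with these families were read from lists of partners. In 9 lists with 84 measured genes in all, 5 rose and 6 fell. These are 5.95% and 7.14%, about the rate of all genes (6.45% and 5.8%). The median change of each list lay between -0.03 and 0.14, against 0.04 for all genes. Single lists are small, and whether their counts below differ from the 6.45% and 5.8% of all genes was not tested.

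At desmosomes 1 of 4 measured genes rose, Pkp1, a plakophilin, from 6.19 ± 0.09 (SD, n = 3) to 6.57 ± 0.09 (1.30-fold, limma adjusted p = 0.016). Its control mean stood just above the bound of 6.18, and control replicates 1 and 2 lay below it, at 6.15 and 6.12. Among nectins, junctional adhesion molecules and tight junction proteins 2 of 13 rose, where 6.45% of all genes were called higher. These were Pvr, the poliovirus receptor homologue, from 3.17 to 3.53, and Marveld3, a tight junction membrane protein, from 4.78 to 5.03, both below the bound. Of 11 polarity genes Mpdz, a multi-PDZ scaffold of tight junctions, fell from 4.92 ± 0.04 to 4.54 ± 0.04 (limma adjusted p = 0.0047), also below the bound. Among 6 actin linkers Zyx, encoding zyxin, rose from 5.86 ± 0.17 to 6.45 ± 0.18, at least 1.20-fold (limma adjusted p = 0.019).

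Of 16 genes around Fat, dachsous and the Hippo pathway 1 fell, where 5.8% of all genes were called lower. It was the kinase gene Lats1, from 4.50 ± 0.14 to 4.16 ± 0.06 (limma adjusted p = 0.033). In the beta-catenin pathway 1 of 10 fell, Lgr4, a receptor for R-spondins, from 5.55 ± 0.06 to 4.40 ± 0.08 (limma adjusted p = 0.0008). Lats1 and Lgr4 both lay below the bound in both groups. Of 6 matriptase partners 0 were called by limma, with 0 higher and 1 lower at an unadjusted p under 0.05, where 11.4% of all genes were lower.

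Latrophilin ligands and G proteins held 3 calls among 11 genes, 1 higher and 2 lower, where 6.45% and 5.8% of all genes were called. Flrt3, a ligand of latrophilins, fell from 4.49 ± 0.18 to 3.95 ± 0.05 (limma adjusted p = 0.011), below the bound in both groups. Unc5c, of a netrin receptor family that also binds Flrt proteins, read 6.46, 6.49 and 6.40 on control and 5.50, 5.45 and 5.35 on cadmium arrays, a level at least 1.21-fold lower (limma adjusted p = 0.0009). Gna12, a G protein subunit that acts on the cytoskeleton, rose 1.22-fold from 7.49 ± 0.07 to 7.78 ± 0.11 (limma adjusted p = 0.040).

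Of 7 regulators of epithelial identity and shedding 1 was called, Adam10, a protease that cleaves E-cadherin and N-cadherin at the cell surface. It read 9.22, 9.29 and 8.51 on control and 7.83, 7.99 and 8.04 on cadmium arrays, so control replicate 3 stood below its group without reaching the cadmium arrays. Its level was 2.07-fold lower with cadmium (limma adjusted p = 0.016), and the call was lost without the control arrays 1 or 2 or the cadmium arrays 2 or 3, at limma adjusted p of up to 0.063. Among these partners Lgr4, Unc5c and Mpdz were called in each fit that left out 1 array, and Pkp1, Pvr, Marveld3, Zyx, Lats1, Flrt3, Gna12 and Adam10 were not.

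**Figure D5:**
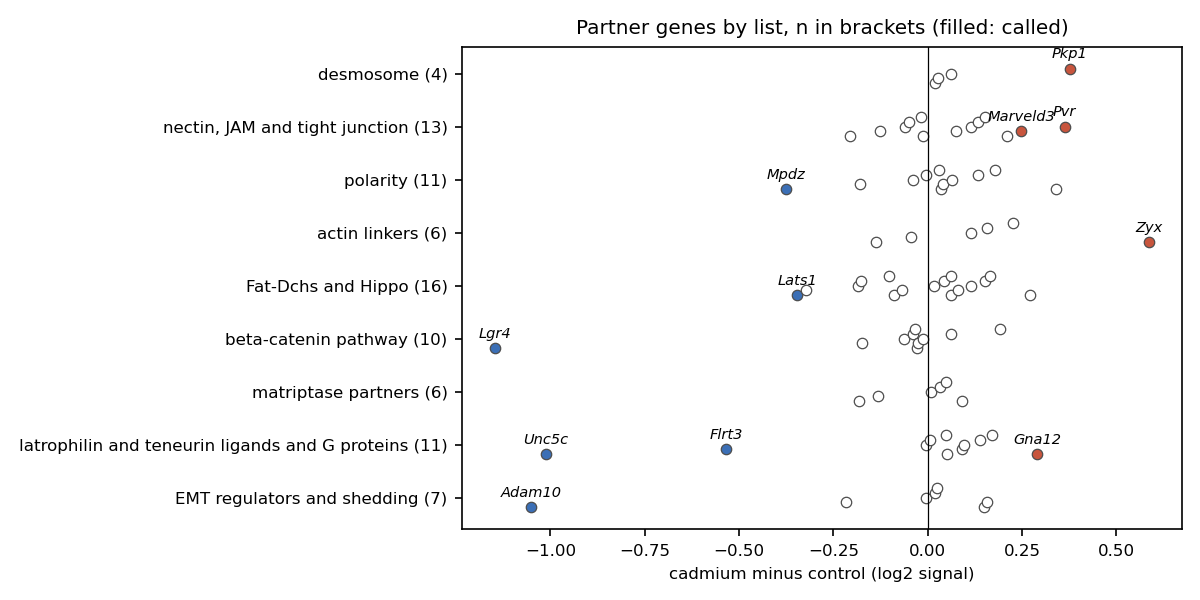
Change of each measured partner gene (cadmium minus control, log2 signal) by list, with called genes filled and named. Lgr4, Adam10 and Unc5c lie below -1, and 71 of the 84 genes lie within 0.25 of 0.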

How the data were processed

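The authors deposited 1 log2 signal per transcript cluster and array. The base is inferred from the range of the values, 0.45 to 13.10. The sources used here do not give how the arrays were corrected, scaled or summarised, or the software. Of 39746 transcript clusters, 18801 had 1 gene symbol in the platform annotation (repeats of a symbol counted once), 1344 with several symbols stayed unnamed, and 19601 carried no symbol. Current names came from RefSeq's GRCm38.p6 gene table, matched on identifier, then symbol, then synonym, and 2 clusters found no match. The brightest probe stood for each of 18572 genes. The number of value columns without a sample was 0. Sample titles gave each array's group and number. With 3 arrays a group, their number limits the precision.

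The test was a linear model of group alone in limma 3.58.1 (R 4.3.3) with eBayes moderation, two-sided, with Benjamini-Hochberg adjustment over 18572 genes. The step was checked on simulated data. Figures were drawn with matplotlib 3.10.9. The members, the partner and marker lists and the rule for named genes were chosen with earlier results of these data known. By that rule, the text names each member that was called or reached the bound, the brightest member and the largest uncalled change of each family, and a fixed set that includes Cdh1 and Cdh5. Other members named, such as Fat3, Adgra1, Adgrl2 and Cldn15, were added after their values were seen. Alternatives covered array scale, filters on level, probes, variance model, array weights, a replicate block, left-out arrays and the threshold.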

Additional observations from a re-analysis of the deposited data

How the results depend on the processing

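The 4 members that rose and 5 that fell, and the 2276 genes called in all, were recomputed under 16 alternatives. All 18 members named by the rule kept their direction in each alternative in which they were tested. Fat1, Dchs1 and Adgra3 stayed called in 16 of 16, and Spint1 and Cdh17 in the 15 that tested them. The members that rose numbered 2 with arrays centred, 1 with a replicate block, 1 among genes at or above the bound (where 8 members were tested), 1 at an adjusted p under 0.01, and 1 to 4 with 1 array left out. The members that fell numbered 4 to 7 over all alternatives. Kept to genes that reached the bound, 4 of 8 members fell and 1 rose, against 399 and 469 of all 2430. With the dimmer genes dropped at the median level, 7 of 34 members fell and 3 rose, against 1209 and 1170 of 9532. Array weights gave 7 falls and 6 rises in 62 members, against 1511 and 1847 in 18572 genes. Whether members and all genes differ in these settings was not tested. All called genes numbered 1372 with the replicate block, 868 among the 2430 genes at or above the bound, 859 at an adjusted p under 0.01, and 1134 to 2352 with 1 array left out, the 4 lowest being 1173 and 1141 without the control arrays 1 and 2, and 1134 and 1165 without the cadmium arrays 2 and 3. Array weights gave 3358. Genes called higher made up 52.6% of calls as deposited, 38.4% with arrays centred and 43.5% after quantile normalization. Same-numbered arrays did not deviate together (correlations of -0.11, 0.05 and -0.11), and the numbers are not taken as pairs here. Deviations from a mean of 3 arrays are tied to one another, so these values cannot exclude cultures shared by same-numbered arrays. Under the block the calls of Cdh13, Ctnna2, Ctnnbl1 and St14 were lost, at limma adjusted p of 0.059 to 0.122, with unchanged estimates. With the 99th percentile of negative controls as the bound, 0 members reached it. Leaving out the 2 arrays that lay apart was chosen after seeing the data, and the cause of their position was not tested.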

Other observations

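With control replicate 3 and cadmium replicate 1 left out, 8 further partner genes passed and 2 called with all arrays did not, in a setting chosen after seeing the data and with 2 arrays a group. All 10 are named here for that reason. Calls over all 18572 genes also rose in this setting, from 2276 with all arrays to 2894. Among actin linkers, Vasp, which promotes actin filament growth, rose by 0.38 (limma adjusted p = 0.012), Actn4, an alpha-actinin, rose by 0.38 (limma adjusted p = 0.013) and Afap1, an actin filament associated protein, rose by 0.23 (limma adjusted p = 0.043). Tead1, a transcription factor that acts with the Hippo effector Yap1, rose by 0.38 (limma adjusted p = 0.012). Fjx1, the homologue of the fly kinase that modifies Fat and dachsous, fell by 0.42 (limma adjusted p = 0.017). Prkci, the atypical protein kinase C of the polarity complex, rose by 0.48 (limma adjusted p = 0.0094). Gnai2, an inhibitory G protein subunit, rose by 0.31 (limma adjusted p = 0.020), and Esrp2, an epithelial splicing regulator, fell by 0.28 (limma adjusted p = 0.049). The calls of Gna12 (0.32, limma adjusted p = 0.072) and Marveld3 (0.24, limma adjusted p = 0.081) were lost. With all 6 arrays on the deposited scale, limma adjusted p was 0.171 for Vasp, 0.525 for Actn4, 0.387 for Afap1, 0.069 for Tead1, 0.064 for Fjx1, 0.053 for Prkci, 0.393 for Gnai2 and 0.073 for Esrp2.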
